A study of Mus musculus with 4 samples.

Results

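The contacts described here were listed for VIP interneurons of the adult mouse cortex between pairs of places that carried no listed contact in SST interneurons. They were found by H3K27ac HiChIP, an assay that captures pairs of DNA segments lying near each other in the nucleus when the chromatin carries acetylated lysine 27 of histone H3. Each listed contact, called an interaction, joins a pair of segments called anchors. A member is a VIP interaction of which neither anchor overlapped, by 1 bp or more, any anchor of the SST list. The rule found 2285 members among the 6733 VIP interactions, and 33.9% is therefore the share of the whole VIP list that it takes (exact 95% interval 32.8 to 35.1%). Both lists together held 15011 interactions. The members were chosen by anchor overlap between the lists, so their absence from SST and their number describe that choice and were not tested.

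All nuclei came from mice of C57BL/6 background whose cells carry a Cre-dependent tag on the nuclear envelope protein Sun1, so that nuclei of one cell class could be captured (INTACT). The genotypes were Vip-cre; Sun1 for VIP cells and Sst-cre; Sun1 for SST cells, and a nucleus was captured because Cre had been active in that cell or its progenitor. The labels describe 4 samples, 2 per class, and 1 list per class was analysed here, attached to replicate 1. How many animals were used, whether they were pooled and how deeply each library was read is unknown here. The lists hold coordinates alone, with no count or score per interaction, so spread between animals could not be measured and nothing was tested. Intervals below cover counting error only and treat interactions as independent, although many share anchors. An anchor enters a list only through an interaction, so missing acetylation, a missing contact and a contact missed for lack of depth cannot be told apart in SST.

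VIP interneurons mostly derive from the caudal ganglionic eminence and often inhibit other inhibitory neurons, SST cells among them. SST interneurons derive from the medial ganglionic eminence and inhibit the dendrites of excitatory neurons. H3K27ac marks active promoters and enhancers, and HiChIP contacts of this mark commonly join promoters to enhancers and enhancers to each other. Coordinates are mm9, printed as in the lists. No mm9 annotation was used here, so anchors were not assigned to genes, cell type markers could not be checked, and no sequence is shown. Where a gene is named beside a network, the name comes from general knowledge of the mouse genome or from locus names supplied beforehand. No locus name stands in the lists or the sample labels. Such a name marks a neighbourhood and not a measured target.

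Members that had an anchor in common were joined, and the 2285 members between 1968 anchors formed 406 networks. Most networks were small, with a median of 2 interactions, while most members sat in the few large ones. A single isolated interaction made up 143 networks, which is 35.2% of networks but 6.26% of members. The 133 networks of 2 to 4 interactions held 358 members and the 67 networks of 5 to 9 held 443. Above that, 32 networks of 10 to 19 interactions held 439 members, and 31 networks of 20 or more held 902 members, 39.5% of all (37.5 to 41.5%). Networks of 10 or more interactions thus held 58.7% of members (56.6 to 60.7%), on 18 of the 20 chromosomes. The 10 largest networks held 420 members, or 18.4%.

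The SST list gave a similar picture on a larger scale when the rule was reversed. Its 3325 interactions with neither anchor in VIP, 40.2% of the SST list, fell into 571 networks with the same median of 2 interactions. Networks of 10 or more held 61.8% of them (60.1 to 63.5%), beside 58.7% for VIP. The largest SST network, on chromosome 17, had 130 interactions, against 61 for the largest VIP network. The SST list is also the longer one, and the part of list length or depth in these sizes was not tested.

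**Figure D1:**
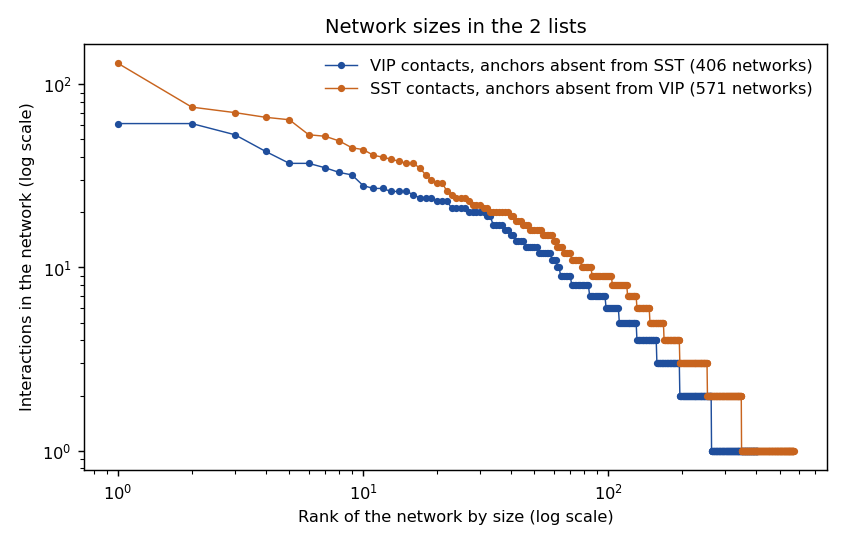
Number of interactions in each network (vertical axis, log scale) against the rank of the network by size (horizontal axis, log scale); each point is 1 network. Both curves end in a long tail of single interactions, and the SST curve starts at 130 interactions while the VIP curve starts at 61.

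The largest size was reached by 2 networks with 61 interactions each, and they had different shapes. The first lay on chromosome 7 from 116893416 to 119172063, in the neighbourhood of Galnt18, a member of the enzyme family that starts mucin-type sugar chains on proteins. It joined 25 anchors and had the longest span of all member networks, 2279 kb. The second lay on chromosome 19 from 48276320 to 48846600, in the neighbourhood of Sorcs3, which encodes a neuronal sorting receptor. It packed 16 anchors into 570 kb. Of the 300 possible anchor pairs of the chromosome 7 network, 20.3% were linked, and of the 120 pairs of the chromosome 19 network, 50.8% were. No listed interaction is longer than 1 Mb, and among the 252 pairs of the chromosome 7 network within 1 Mb the share was 24.2%.

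The length of the chromosome 7 network rested on a few single links. A dense group of 14 anchors from 118313687 to 118925578, 612 kb, held 50 of the 61 interactions, and 54.9% of the pairs within it were linked. Among the members, the other 11 interactions were each the only connection between the pieces they joined. At the left, the anchor at 116893416 to 116911909 had 1 interaction, its partner at 117197911 to 117210072 had 2, and the next anchor, at 117839229 to 117877017, had 3. This chain and a single link on the right to the anchor at 119164300 to 119172063 set the outer ends of the network. Within the dense group the anchor at 118849629 to 118895993 had 18 interactions, the one at 118422671 to 118461950 had 14, and those at 118613466 to 118646529 and 118907847 to 118925578 had 11 each. The 18 partners of the first lay mostly on its left, 15 against 3 on its right. The closest SST anchor to any anchor of the network was 1.39 kb away, beside the left chain, whereas every anchor of the dense group was at least 357 kb from an SST anchor. The span held 2 SST anchors and 1 SST interaction. A further 4 VIP interactions, not members, joined the network to 3 outside anchors.

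The chromosome 19 network was compact and stood alone in both lists. Its first anchor, 48276320 to 48297473, was linked to all 15 others, which lie to its right. Next came the anchors at 48477654 to 48507116 and 48526564 to 48569831 with 13 interactions each, and those at 48586987 to 48616777 and 48749022 to 48769260 with 11 each. A single anchor of the 16, at 48617641 to 48625329, had 1 interaction, and removing that link left 60 interactions over the same span. No VIP interaction outside the network touched its anchors, and the nearest SST anchor was 1181 kb away. Links were listed at all distances that the locus allows. They joined 66.7% of 18 anchor pairs up to 50 kb, 52.9% of 17 at 50 to 100 kb and 35.1% of 37 at 100 to 200 kb. Further apart, they joined 56.1% of 41 pairs at 200 to 400 kb and 57.1% of 7 at 400 to 600 kb. The intervals of these shares overlap, for example 41.0 to 86.7% up to 50 kb and 20.2 to 52.5% at 100 to 200 kb. This network held 61 of the 100 members of chromosome 19.

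The next networks by size were on chromosomes 4 and 16. The chromosome 4 network ran from 74668872 to 76462054, in the neighbourhood of Ptprd, a receptor tyrosine phosphatase that organises synapses. It had 53 interactions among 17 anchors, of which 39.0% of pairs were linked, and no anchor dominated it: 4 anchors shared the highest number, 12. They were at 75201301 to 75225467, 75481294 to 75508689, 75583908 to 75624319 and 75635542 to 75674082. A further 13 VIP interactions joined this network to 1 outside anchor, 76061428 to 76110770, which was linked to 13 of the 17 anchors and had 22 VIP interactions in all. That anchor overlapped 1 SST anchor with 1 SST interaction, and this overlap alone keeps its 13 links out of the members. The span of the network held 2 SST anchors and 1 SST interaction. The closest SST anchor lay 68.0 kb from a network anchor.

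The chromosome 16 network, from 11524536 to 13112267, had 43 interactions among 22 anchors and took the form of a star. It lies in the neighbourhood of Shisa9, which encodes an auxiliary protein of AMPA-type glutamate receptors. Its central anchor, 12106072 to 12181375, was 75.3 kb wide and was linked to every other anchor, 8 on the left and 13 on the right. These 21 interactions were 48.8% of the network and the highest number at any member anchor. The neighbouring anchor at 12037994 to 12104493 had 12 interactions, and 9 of the 22 anchors had a single interaction, all with the central one. No SST anchor lay in its span and no other VIP interaction touched it. Its contacts were long, with a median distance between anchor midpoints of 407 kb, against 158 kb in the chromosome 19 network.

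**Figure D2:**
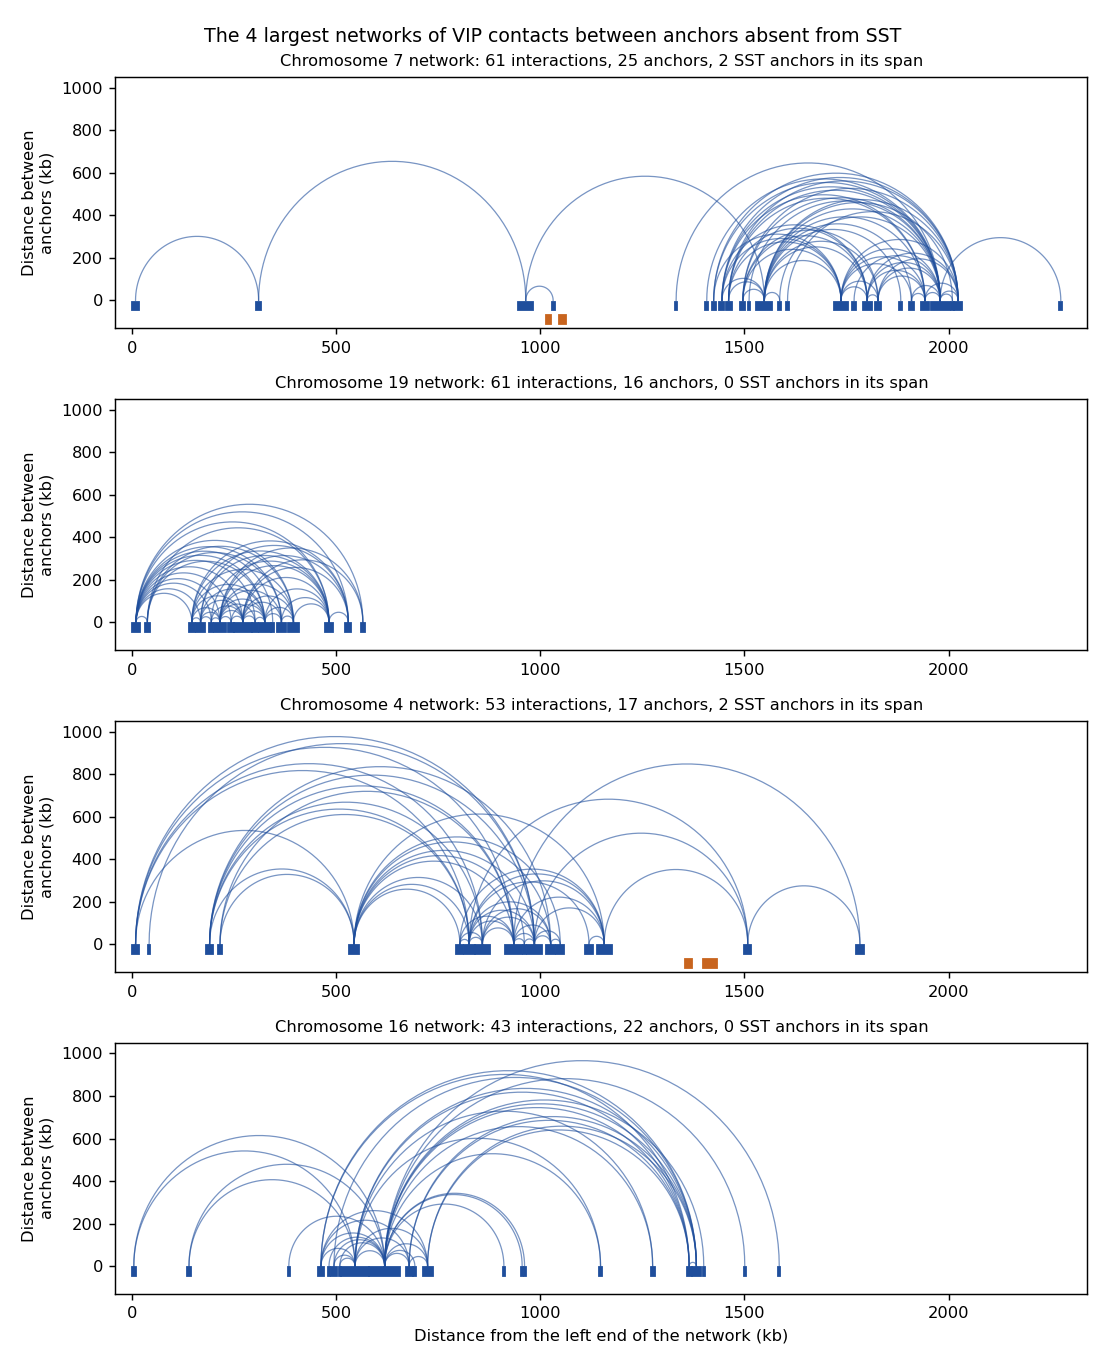
The 4 largest networks, drawn to 1 scale as distance from the left end of each network (horizontal axis, kb). Each blue arc is 1 interaction whose height is the distance between its anchors (vertical axis, kb), blue boxes are the anchors of the network and orange boxes are SST anchors within its span. The chromosome 7 network shows a dense group at the right and a chain of single links at the left, and the chromosome 19 network is compact with 0 SST anchors in its span.

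The remaining networks of the largest 10 had between 28 and 37 interactions. On chromosome 1 the network from 66906357 to 69159849 had the most anchors of all, 28, but 9.79% of its pairs linked, the lowest share of the 10. Many of its pairs lie further apart than any listed interaction. Among its 228 pairs within 1 Mb the share was 16.2%. It lies in the neighbourhood of Erbb4, the neuregulin receptor through which interneurons receive signals for their migration and wiring. Its rightmost anchor, 69128049 to 69159849, had 16 interactions, all towards the left, with a median distance of 469 kb, and 16 of the 28 anchors had 1 interaction each. The span held 6 SST anchors and 8 SST interactions, the most SST interactions in any of the 10.

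A second chromosome 7 network, from 38171092 to 38964539 in the neighbourhood of Zfp536, a zinc finger repressor of neuronal differentiation, had 37 interactions among 15 anchors. Its top anchor, 38244391 to 38305903, had 12. An outside anchor at 38142994 to 38166114, which overlapped 2 SST anchors, was linked to 9 of its 15 anchors. On chromosome 8 the network from 14965453 to 17131776, in the neighbourhood of Csmd1, a gene for a large membrane protein with complement-regulating domains, had 32 interactions among 17 anchors. It was the network of the 10 most tied to other VIP contacts, with 23 attached interactions through 5 outside anchors, and its span held 7 SST anchors. Its top anchor, 16527098 to 16574063, had 11 member interactions of 16 in all.

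The last 3 of the 10 are given by position. The network on chromosome 17 from 48545968 to 49999035 had 35 interactions among 19 anchors, with 12 at the anchor 49827384 to 49857868, and 17 attached interactions. The network on chromosome 9 from 42188252 to 42918567 had 33 interactions among 13 anchors, of which 42.3% of pairs were linked. Its anchor at 42418348 to 42470393 was linked to all 12 others, and the span held no SST anchor. The second chromosome 4 network, from 141449807 to 142472194, had 28 interactions among 16 anchors, with 13 at the anchor 141837369 to 141884308.

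These 10 networks differed in how far their span depended on single links. Every link that alone joined a pair of pieces among the members was set aside. The chromosome 7 network near Galnt18 then fell from 2279 to 612 kb and the chromosome 8 network from 2166 to 1208 kb. The second chromosome 4 network went from 1022 to 604 kb. The Sorcs3, Zfp536 and chromosome 9 networks kept their spans of 570, 793 and 730 kb, as did the Ptprd network with 1793 kb. The Erbb4 network kept 2143 of 2253 kb, but with 21 of its 37 interactions and 12 of its 28 anchors.

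**Figure D3:**
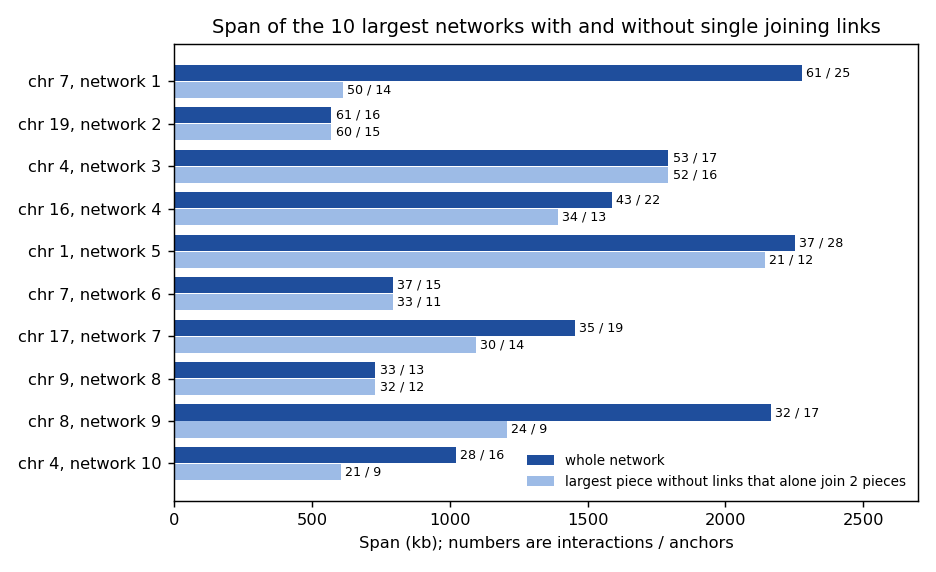
Span in kb (horizontal axis) of the 10 largest networks, ranked from the top, for the whole network (dark bars) and for the largest piece after links that alone join 2 pieces were set aside (light bars); the numbers give interactions and anchors. Network 1 falls from 2279 to 612 kb with 50 interactions left, while network 2 stays at 570 kb with 60 left.

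Within these networks, links were listed over the whole range of distances. Over the 10 networks, 43.3% of 141 anchor pairs up to 50 kb were linked (35.0 to 51.9%), 24.6% of 236 pairs at 100 to 200 kb (19.2 to 30.6%), 31.4% of 354 pairs at 200 to 400 kb (26.6 to 36.5%) and 21.6% of 320 pairs at 600 to 1000 kb (17.2 to 26.5%). At 50 to 100 kb 37.6% of 149 pairs were linked, and at 400 to 600 kb 23.6% of 275 pairs. The share was higher up to 50 kb than beyond 600 kb, and the intervals at 100 to 200 and 200 to 400 kb overlapped. The 10 largest SST networks gave 30.7% up to 50 kb, 22.8% at 50 to 100 kb and 18.0% at 100 to 200 kb. They gave 28.6% at 200 to 400 kb, 22.3% at 400 to 600 kb and 18.1% at 600 to 1000 kb. In both lists the share at 100 to 200 kb was lower than that at 200 to 400 kb, with overlapping intervals for VIP and separate ones for SST (14.5 to 22.0% and 25.4 to 31.9%). These networks were picked for having many links, so the shares describe them and no other loci.

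Busy member anchors were few and wide. Of 1968 member anchors, 1061 (53.9%) had a single member interaction and 41 had 10 or more, of which 23 lay in the 10 largest networks. The 5 busiest were the central anchor near Shisa9 with 21 interactions, the chromosome 7 anchor near Galnt18 with 18, the anchor at chromosome 8, 91544437 to 91573328, with 17, and the Erbb4 anchor and the anchor at chromosome 14, 29314681 to 29340016, with 16 each. The chromosome 14 anchor had 22 VIP interactions in all and the chromosome 8 anchor had no others. Median width rose from 10.3 kb (9.82 to 10.6) at 1 member interaction to 16.5 kb at 2 to 4, 25.1 kb at 5 to 9 and 35.8 kb (29.8 to 41.9) at 10 or more. A wider anchor can collect more contacts, and the part of width in these numbers was not tested.

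The longest members reached close to the limit of the VIP list, in which no interaction exceeded 995.5 kb. One joined chromosome 13, 102475736 to 102512595, with 103477971 to 103493442, at 991.5 kb. Another joined chromosome 18, 55171818 to 55191930, with 56161246 to 56179556, at 988.5 kb, in a network of only 2 interactions. The last of the named 3 joined the Erbb4 anchor to the one at 68151347 to 68172941, at 981.8 kb.

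Member anchors often lay far from any SST anchor. The rule leaves out VIP anchors that overlap an SST anchor, so the gaps below depend on the rule and were not tested. No gaps are given for VIP anchors outside the members. VIP anchors without SST overlap made up 56.5% of all 4850 VIP anchors, and of those 2738 anchors 1968 were in a member and 770 only in interactions whose other anchor overlapped SST. The median gap from a member anchor to the nearest SST anchor was 319 kb (293 to 358 kb). The reversed SST set had the larger median gap, 479 kb (425 to 520.5 kb) from its anchors to the nearest VIP anchor. The lists measured against differ in size, with 4850 VIP and 5842 SST anchors, and the part of this in the gaps was not tested. Within 10 kb of an SST anchor lay 117 member anchors (5.95%, 4.94 to 7.08%), and more than 500 kb away lay 810 (41.2%, 39.0 to 43.4%). At the edge of the rule, the member anchor at chromosome 2, 138080298 to 138097984, touched an SST anchor with 0 bp between, and the anchors at chromosome 18, 25782680 to 25796340, and chromosome 12, 117746856 to 117764757, were 6 and 63 bp away. On the other side, the smallest overlaps that excluded a VIP anchor were 677, 822 and 946 bp. Each of the 3 member anchors had 1 member interaction, and each of the 3 excluded anchors had 1 VIP interaction.

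The stretch between the anchors of a member also held few SST anchors. The rule clears both ends of that stretch of SST anchors, so this is not independent of the rule. No SST anchor lay between the anchors of 86.0% of members (84.5 to 87.4%), against 23.0% (21.7 to 24.2%) of the other 4448 VIP interactions, which by their definition have an SST anchor at one end or both. Up to 50 kb this held for 611 of 611 members, against 52.3% of the others. At 400 to 1000 kb it held for 71.4% of members (67.1 to 75.5%) and 6.81% of the others (5.30 to 8.60%). The SST interactions with neither anchor in VIP gave 85.0% over all distances and 69.5% at 400 to 1000 kb, within the intervals of the VIP members. Members and the other VIP interactions were split by the same SST anchors that are counted here, so part of the contrast is fixed in advance. The contrast comes from the same pair of lists as the rule and was not tested.

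**Figure D4:**
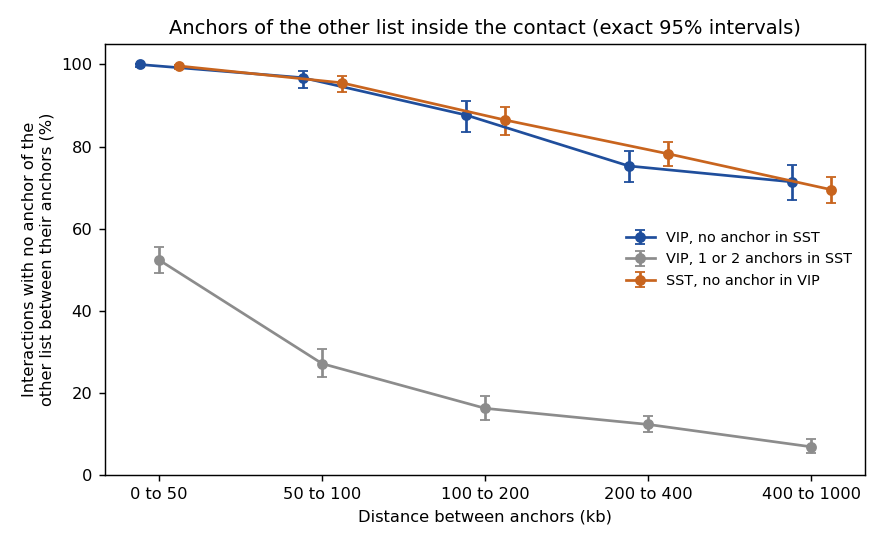
Percentage of interactions with no anchor of the other list between their anchors (vertical axis) by distance between anchors (horizontal axis, kb), with exact 95% intervals. The members (blue) stay between 100 and 71.4%, close to the reversed SST set (orange), while the other VIP interactions (grey) go from 52.3 to 6.81%.

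Whole networks followed the same pattern. Of the 406 networks, 320 (78.8%), with 1371 of the 2285 members, had no SST anchor in their span, and 230 networks had neither an SST anchor in their span nor another VIP interaction at their anchors. These 230 held 1031 members. The share without an SST anchor was 93.7% among single interactions and 45.2% among networks of 20 or more, which cover more of the genome: their median span was 932 kb against 57.2 kb. In the reversed SST set, 466 of 571 networks (81.6%) had no VIP anchor in their span. That share was 93.2% among its single interactions and 56.4% among its networks of 20 or more, so the trait is not particular to VIP. Of the member anchors, 1447 (73.5%, 71.5 to 75.5%) took part in members only. Any other interaction of a member anchor must, by the rule, have a partner that overlaps SST, so this share depends on the rule. No such share is given for the reversed SST set.

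Members were not evenly placed over the chromosomes. On the autosomes they made up between 17.3% of VIP interactions on chromosome 6 (56 of 324, 13.3 to 21.8%) and 69.0% on chromosome 19 (100 of 145, 60.8 to 76.4%), with a median of 33.5%. Without the Sorcs3 network chromosome 19 stood at 46.4%. Chromosomes 16 and 1 followed with 53.3 and 51.2%, which were 40.4 and 45.2% without their Shisa9 and Erbb4 networks. Chromosome 17 went from 20.7 to 12.9% without its named network. In the reversed SST set chromosomes 16 and 19 also had the highest autosomal shares, 63.9 and 58.6%, so high shares there are not particular to VIP. Chromosome 1, at 47.1%, also came behind chromosomes 8, 4 and 7, at 52.3, 50 and 49.9%. Chromosomes 6 and 17, low for VIP, stood at 40.05 and 45.7% in the reversed SST set. Chromosome X had 7 members of 11 interactions (30.8 to 89.1%), too few to place it.

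In median distance, members lay between the other kinds of VIP interaction, but their interval overlapped that of interactions with both anchors in SST. Their median was 150 kb (135 to 164 kb), against 241 kb (218 to 258 kb) for the 2121 interactions with 1 anchor in SST and 134 kb (120 to 147 kb) for the 2327 with both. Members were shorter than the first kind on 14 of 19 autosomes and longer than the second on 14 of 19. Against all other VIP interactions together the difference in medians, members minus others, was -25.5 kb, or -54.7 to -1.51 kb when the ends of both medians' intervals are combined. It ran from -33.5 kb without chromosome 4 to -20.9 kb without chromosome 12. It was -8.18 kb with anchors within 5 kb merged and -3.83 kb up to 200 kb, with intervals reaching across 0 in both (-56.7 to 29.4 kb and -10.4 to 1.39 kb), and -44.6 kb without the 10 largest networks. Members were the shorter on 10 chromosomes and the longer on 10, so this pooled difference was not shared along the genome. SST had the same order, with 182 kb for interactions with no anchor in VIP, 245 kb with 1 and 127 kb with both. Within the members, the median rose from 36.9 kb for single interactions to 248 kb in networks of 20 or more.

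**Figure D5:**
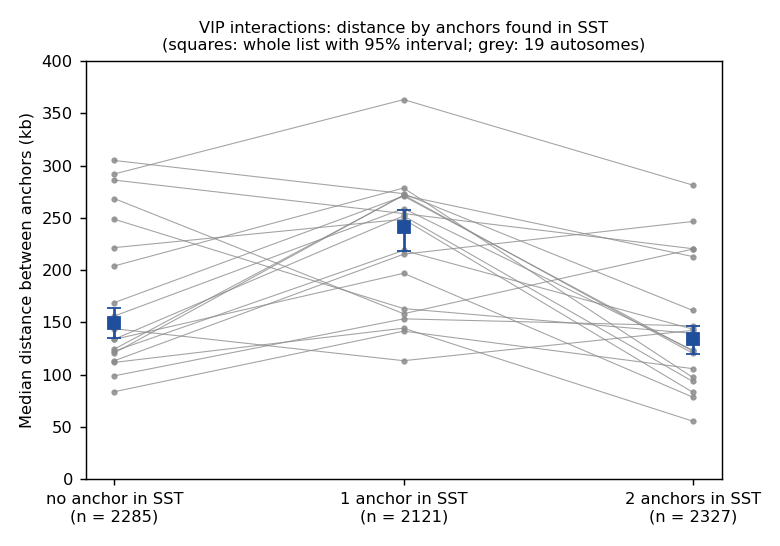
Median distance between anchors (vertical axis, kb) of VIP interactions with 0, 1 or 2 anchors in the SST list (horizontal axis). Squares are the whole list with 95% order-statistic intervals and grey lines are the 19 autosomes; the middle class is highest over the whole list, at 241 kb, though not on every chromosome.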

How the data were processed

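HiChIP interaction lists for VIP and SST nuclei were used as deposited, 1 list per cell class. Each has 6 columns without a header: chromosome, start and end (bp) of both anchors. HiC-Pro and mm9 appear in the submitters' processing notes. The calling of interactions, the making of anchors and any pooling of replicates are not stated in those notes or the labels as seen here. Positions as deposited carry no count, so depth is unknown. No interaction joined different chromosomes and none was repeated.

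Anchors were matched by an overlap of 1 bp, reading ends as outside the anchor. Networks are connected components over identical anchors, which do not overlap within a list (smallest gap 501 bp). Distances run between anchor midpoints. Shares carry exact 95% binomial (Clopper-Pearson) intervals, medians order-statistic intervals. Named were the 10 networks and 5 anchors with the most member interactions and the 3 longest members; other anchors and outside anchors in these networks were named after their values were seen. Members and lists were chosen with earlier results of these data known. Planned gene and marker lists need an mm9 annotation and were left out. On planted lists, the steps recovered 200 of 200 networks and 2134 of 2134 members. Alternatives are given at the end. Python 3.11.15, numpy 2.4.6, scipy 1.17.1 and matplotlib 3.10.9 were used.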

Additional observations from a re-analysis of the deposited data

How the results depend on the processing

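Of 62 recomputed values, 42 stayed within 1.5 times (counts) or within the interval of the value given (shares and medians), 19 moved outside and 1 changed sign. Requiring identical anchor coordinates gave 6306 members in 711 networks, the largest with 95 interactions; 74.9% of members were then in networks of 10 or more, 94.1% of member anchors served members only, the median distance was 167 kb and the difference from other VIP interactions was 0.107 kb. The rule is then almost always met, by construction, since few anchors have the same ends in both lists. Anchors within 10 kb changed the share of anchors serving members only, to 76.5%. Merging anchors within 5 kb of each other left a largest network of 36 interactions and 48.6% of members in networks of 10 or more. The median distance was then 239 kb and 77.1% of anchors served members only. By construction, merging drops links between anchors that merge, turns parallel links into 1 and applies the SST rule to the wider anchors. The Sorcs3 network then had 27 interactions among 9 anchors (75.0% of pairs), the Galnt18 network stayed the largest with 36. The Ptprd network had 27 instead of 53, the Shisa9 network 19 instead of 43, the Zfp536 network 12 instead of 37 and the second chromosome 4 network 14 instead of 28; the last 2 then ranked 38 and 26 and were no longer among the 10 largest. Leaving out interactions under 20 kb gave a median of 165 kb. Up to 200 kb there were 1493 members, a largest network of 34 interactions (the Sorcs3 one), 30.7% in networks of 10 or more, a median of 54.4 kb and 88.4% of anchors serving members only, with longer links left out by construction. Without the 10 largest networks, a setting chosen after seeing the data, 49.4% of members were in networks of 10 or more and the median was 130 kb. Counting end coordinates as part of the anchor, also added later, gave 2284 members in 405 networks. No paired analysis was possible because only 1 list per class was used and it holds nothing per replicate, so no replicate could be left out either. Depth is unknown, so absence from a list means only that no contact was called.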

Other observations

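The spans of VIP networks were set beside those of SST networks made of anchors absent from VIP. Of the 63 VIP networks of 10 or more interactions, 7 (11.1%) overlapped the span of any such SST network and 1 overlapped one of 10 or more interactions. The share was about the same over all 406 VIP networks, 49 (12.1%), and over all 6733 VIP interactions, 869 (12.9%). These units differ in length: the median span was 892 kb for the networks of 10 or more and 276 kb for all 406. A longer span has more room to overlap, so equal shares do not set a background for the large networks. On chromosome 8 the VIP network that starts at 14965453 began 66.9 kb after an SST network of 35 interactions, which ran from 14093977 to 14898525. The same VIP network held within its span an SST network of 1 interaction, at 15360228 to 15397435. The Erbb4 network likewise held an SST network of 2 interactions, at 67262922 to 68145657. The chromosome 16 network near Shisa9 ended 43.6 kb before an SST network of 2 interactions and lay 1568 kb from an SST network of 39 interactions at 8936599 to 9956592. The Ptprd network was 8601 kb from the closest SST network of this kind. Its span still held 2 SST anchors and 1 SST interaction. Both sets are defined against the other list, so little overlap of their anchors follows from the rule, and overlap of their spans was not tested.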
